A study of Mus musculus with 6 samples.

Results

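The receptors described here were 10 C-type lectin receptors of myeloid cells, among them Mincle, encoded by *Clec4e*. They were chosen by gene name, as *Clec4e*, *Clec4d*, *Clec4n*, *Clec7a*, *Clec5a*, *Clec4a1*, *Clec4a2*, *Clec4a3*, *Clec12a* and *Clec10a*, from the 54532 genes of the count table. Macrophages were obtained from C57BL/6 mice, 12 weeks old, whose left anterior descending coronary artery had been occluded permanently for 7 days. In 3 libraries the mice were ITGA5 fl/fl, with the floxed gene of the α5 integrin chain intact and without Cre. The other 3 libraries came from Myα5KO littermates, LyzM-Cre; ITGA5 fl/fl mice in which Cre, driven from the lysozyme M locus, deletes the floxed gene in monocytes, macrophages and neutrophils. Both groups carried the floxed alleles and both had an infarct, so the comparison addresses what loss of the integrin in myeloid cells does to infarct macrophages. The controls lacked Cre, and effects of Cre and of *Itga5* loss cannot be told apart here. Cells were depleted of Ly6G+ neutrophils and then selected for CD11b, so the libraries are bulk RNA of all the CD11b+ cells retained. The study used hearts of individual mice of both sexes and did not state the sex behind each library.

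C-type lectin receptors sit on the surface of macrophages, dendritic cells and neutrophils and bind sugars, lipids and proteins of microbes and of damaged cells. Mincle, MCL (*Clec4d*) and Dectin-2 (*Clec4n*) signal through the Fc receptor γ chain, Dectin-1 (*Clec7a*) through a motif in its own tail and MDL-1 (*Clec5a*) through DAP12, and all of them lead to the kinase SYK, from which several act through CARD9 on NF-κB and cytokine genes. Mincle is known to bind a nuclear protein, SAP130, that dying cells release, and its gene is induced in macrophages by inflammatory signals, whereas DCIR (*Clec4a2*) and MICL (*Clec12a*) carry inhibitory tail motifs.

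The 6 libraries held between 15424451 and 18419287 counts, and every Myα5KO total was above every ITGA5 fl/fl total. *Itga5* stood at 653, 568 and 599.6 counts per 1000000 counts of the scaled library (CPM) in ITGA5 fl/fl and at 49.99, 48.96 and 47.1 CPM in Myα5KO libraries, that is at 8.02% of the control mean. *Lyz2*, the lysozyme gene that the Cre driver uses, stood at 53.0% of the control mean (log2 fold change -0.92, edgeR adjusted p = 4.27e-05). Macrophage markers were abundant in both groups, with a summed level of 10390 to 10510 CPM over 8 genes in ITGA5 fl/fl and of 9846 to 10340 CPM in Myα5KO macrophages. Replicate libraries differed by more than sampling noise in every pair. The p-values rest on 3 libraries per group. They set the difference between the groups against the spread between these libraries, which the test estimates with information from all tested genes.

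All 10 receptors were expressed, with 679 to 11057 counts per library, and all passed the filter on low counts. In Myα5KO macrophages 2 were lower (*Clec4e* and *Clec4d*), 2 were higher (*Clec5a* and *Clec10a*) and 6 were not called, at an adjusted p of 0.05 or less in edgeR. Among all 14522 genes tested, 5.19% were called lower and 3.56% higher (8.75% in either direction). The median log2 fold change of the receptors was 0.13, that of all tested genes was 0.01, and 7 of the 10 receptors had a value above 0. The CPM of both groups did not overlap for 6 receptors, 2 lower and 4 higher, where 28.6% of all tested genes had groups that did not overlap (13.8% lower and 14.9% higher). With bulk RNA, fewer cells that express a receptor and less receptor RNA per cell cannot be told apart, and this holds for each value below.

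**Figure D1:**
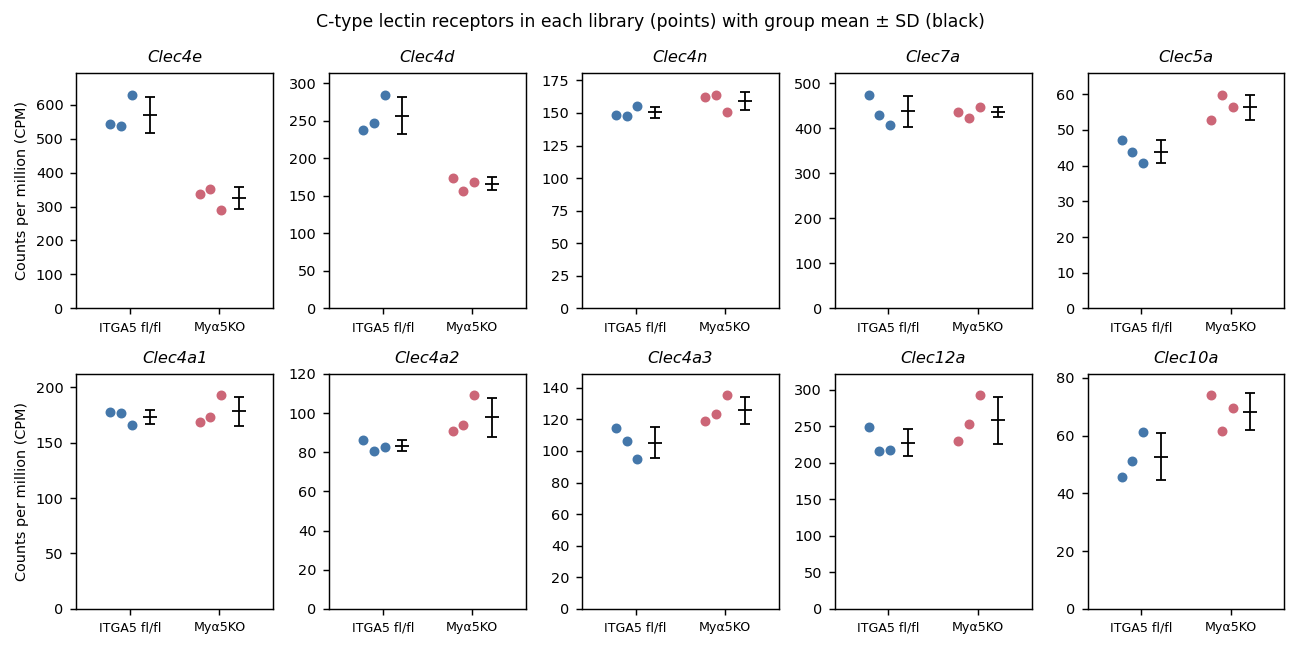
Scaled counts in CPM (y axes, each from 0) of the 10 receptors in each of the 3 ITGA5 fl/fl (blue) and 3 Myα5KO (red) libraries, with the mean ± SD of each group in black. The groups stand clearly apart for *Clec4e* and *Clec4d*, which were lower in Myα5KO, and overlap for *Clec4n*, *Clec7a*, *Clec4a1* and *Clec12a*.

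The receptors coupled to the Fc receptor γ chain moved unequally. *Clec4e* (Mincle, ENSMUSG00000030142, minus strand, chr6:123281789-123289870) had 542, 536.5 and 629 CPM in ITGA5 fl/fl and 337, 351 and 289.6 CPM in Myα5KO macrophages. The lowest control library was thus well above the highest Myα5KO library. The mean fell from 569 ± 52.1 to 326 ± 32.1 CPM (SD, n = 3), to 57.2% of control. Its log2 fold change was -0.80 (SE 0.09, 95% interval -0.99 to -0.62, edgeR adjusted p = 0.000188). These values rest on 8084 to 11057 counts per control library and 5508 to 6555 counts per Myα5KO library.

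*Clec4d* (MCL, ENSMUSG00000030144, plus strand, chr6:123262111-123275265), which pairs with Mincle at the cell surface, had 238, 247 and 285 CPM in ITGA5 fl/fl and 174, 157 and 169 CPM in Myα5KO macrophages. Here too all control libraries lay above all Myα5KO libraries. The mean fell from 257 ± 24.8 to 167 ± 8.46 CPM (SD, n = 3), to 64.8% of control, with a log2 fold change of -0.63 (SE 0.08, 95% interval -0.79 to -0.46, edgeR adjusted p = 0.000391). Both *Clec4e* and *Clec4d* were called lower in all 6 fits without 1 library, with log2 fold changes of -0.86 to -0.73 and of -0.68 to -0.55.

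*Clec4n* (Dectin-2, ENSMUSG00000023349, plus strand, chr6:123229843-123247021), which binds mannose-rich sugars of fungi, had 149, 148 and 155 CPM in ITGA5 fl/fl and 162, 164 and 151 CPM in Myα5KO macrophages. The groups overlapped, and the log2 fold change was 0.08 (95% interval -0.06 to 0.22, edgeR adjusted p = 0.501). That interval excludes a decrease of the size seen for its neighbours *Clec4d* and *Clec4e*.

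*Clec4d* and *Clec4e* are neighbours on chromosome 6, transcribed towards each other with 6523 bases between the ends of their gene bodies. The sequences upstream of their starts are shown because these 2 genes fell together, and that of *Clec5a* because it was called in the other direction. Each line gives the 250 bases before the start of the RefSeq transcript (GRCm38.p6), 5′ to 3′ on the strand of the gene, with capitals at each GAGGAA or its reverse complement TTCCTC, the core letters bound by PU.1, a transcription factor of myeloid cells. The windows are chr6:123289872-123290121 (minus strand) for *Clec4e*, chr6:123261857-123262106 (plus strand) for *Clec4d* and chr6:40585806-40586055 (minus strand) for *Clec5a*.

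Clec4e: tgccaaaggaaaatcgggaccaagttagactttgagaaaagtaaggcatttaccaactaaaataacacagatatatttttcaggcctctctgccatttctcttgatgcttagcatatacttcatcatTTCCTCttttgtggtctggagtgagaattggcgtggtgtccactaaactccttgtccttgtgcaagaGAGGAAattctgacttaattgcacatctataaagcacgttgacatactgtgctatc

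Clec4d: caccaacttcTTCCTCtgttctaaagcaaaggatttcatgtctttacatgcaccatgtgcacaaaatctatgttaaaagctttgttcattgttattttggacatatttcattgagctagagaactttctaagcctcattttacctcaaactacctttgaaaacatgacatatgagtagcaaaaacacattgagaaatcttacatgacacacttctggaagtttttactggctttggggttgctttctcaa

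Clec5a: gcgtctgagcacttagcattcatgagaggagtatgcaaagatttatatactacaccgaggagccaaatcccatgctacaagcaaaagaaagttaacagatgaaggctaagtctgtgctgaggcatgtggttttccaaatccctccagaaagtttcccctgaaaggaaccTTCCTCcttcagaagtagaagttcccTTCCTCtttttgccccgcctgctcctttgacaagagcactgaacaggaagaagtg

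GAGGAA occurred on either strand in the windows of all 3 genes. It was in those of 7 of the 8 receptors with a promoter in the table (every one but *Clec4a2*). Of 32851 mouse promoters, each counted singly, 23.3% hold it. *Clec7a* and *Clec4a3* had 2 windows each, and a match in either counted for the receptor. The *Clec4e* window also held TTGCNNAA, the letters of a C/EBP site (on either strand, 9.56% of promoters), 59 to 66 bases before the start, and ACGTG, the core of a hypoxia response element (16.6% of promoters). The *Clec4d* and *Clec5a* windows held neither. *Clec12a* shared the C/EBP letters. The NF-κB-type motif searched (on either strand, 4.11% of promoters) was in the windows of 0 of the 8 receptors. The same held for TGACGTCA, the cyclic AMP response element (1.55% of promoters). None of these matches overlapped another within the *Clec4e* window. A match describes letters only, and no match says nothing of the factor.

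Dectin-1 is the receptor of this family for β-glucans of fungal walls and signals without an adaptor. Its gene *Clec7a* (ENSMUSG00000079293, minus strand, chr6:129461591-129472779), which the deposited annotation types as a polymorphic pseudogene, had 475, 431 and 408 CPM in ITGA5 fl/fl and 437, 424 and 448 CPM in Myα5KO macrophages. The Myα5KO libraries lay inside the range of the controls. The log2 fold change was -0.0046 (95% interval -0.16 to 0.15, edgeR adjusted p = 0.982), and its sign depended on which library was left out.

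*Clec5a* (MDL-1, ENSMUSG00000029915, minus strand, chr6:40574894-40585821), the DAP12-coupled receptor, had 47.3, 43.7 and 40.9 CPM in ITGA5 fl/fl and 52.8, 59.9 and 56.3 CPM in Myα5KO macrophages. All Myα5KO libraries were above all controls. The mean rose from 43.9 ± 3.20 to 56.3 ± 3.56 CPM (SD, n = 3), to 128% of control, with a log2 fold change of 0.36 (SE 0.08, 95% interval 0.19 to 0.53, edgeR adjusted p = 0.0114). The call was lost when ITGA5 fl/fl replicate 3 was left out (0.31 on the log2 scale, adjusted p = 0.0601) and without Myα5KO replicate 2 (0.31, adjusted p = 0.061), in edgeR in both cases.

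**Figure D2:**
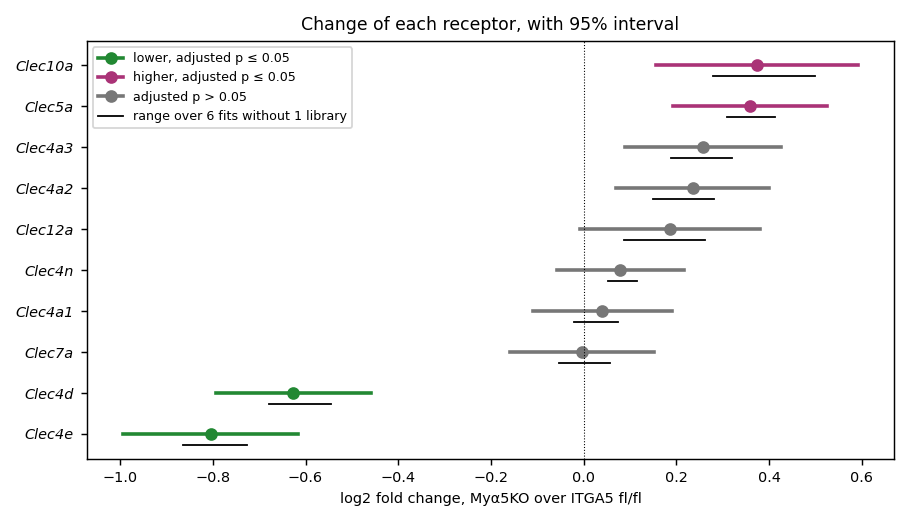
Log2 fold change (x axis, Myα5KO over ITGA5 fl/fl, edgeR) of each receptor, with its 95% interval as the coloured bar and, in black, the range over the 6 fits without 1 library. *Clec4e* and *Clec4d* lie below 0 over their whole intervals, and the intervals of *Clec5a*, *Clec10a*, *Clec4a3* and *Clec4a2* lie above 0, of which the first 2 were called.

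Of the inhibitory receptors, *Clec4a2* (DCIR, ENSMUSG00000030148, plus strand, chr6:123106428-123143999) had 86.3, 80.7 and 82.7 CPM in ITGA5 fl/fl and 90.7, 93.7 and 109 CPM in Myα5KO macrophages. The groups did not overlap, and the log2 fold change was 0.23 (SE 0.08, 95% interval 0.07 to 0.40), but the adjusted p was 0.0754 in edgeR. Of the receptors in the *Clec4* cluster on chromosome 6, *Clec4a2* has the transcripts that share most with other genes. Of its stretches of 50 bases, 6.83% also occur in transcripts of other genes, mostly *Clec4a4* and *Clec4b1*. At 150 bases, the read length, 0.468% are shared, and the genes that share them were not recorded. *Clec12a* (MICL, ENSMUSG00000053063, plus strand, chr6:129342691-129365303), a receptor for uric acid crystals, had 248, 215 and 217 CPM in ITGA5 fl/fl and 229, 253 and 293 CPM in Myα5KO macrophages. Its groups overlapped, and it missed the threshold (log2 fold change 0.19, 95% interval -0.01 to 0.38, edgeR adjusted p = 0.236).

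*Clec4a3* and *Clec4a1* encode DCIR relatives without the inhibitory motif. *Clec4a3* (ENSMUSG00000043832, plus strand, chr6:122952515-122969875) had 115, 106 and 95.2 CPM in ITGA5 fl/fl and 119, 123 and 135.5 CPM in Myα5KO macrophages. Its groups did not overlap, and the log2 fold change of 0.26 (SE 0.08, 95% interval 0.09 to 0.43) had an adjusted p of 0.0593 in edgeR. DESeq2 called it (adjusted p = 0.0474), in a fit that called 9.01% of the genes it tested. *Clec4a1* (ENSMUSG00000049037, plus strand, chr6:122921848-122934619) had 178, 176.5 and 166 CPM in ITGA5 fl/fl and 169, 173 and 193 CPM in Myα5KO macrophages. These groups overlapped, with a log2 fold change of 0.04 (95% interval -0.11 to 0.19, edgeR adjusted p = 0.781).

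*Clec10a* (MGL1, ENSMUSG00000000318, plus strand, chr11:70156197-70170834), which binds galactose-type sugars and marks macrophages in an alternative state of activation, had 45.5, 51.1 and 61.41 CPM in ITGA5 fl/fl and 74.1, 61.43 and 69.5 CPM in Myα5KO macrophages. The highest control and the lowest Myα5KO library were thus nearly equal, and in the deposited FPKM the groups overlapped. The mean rose from 52.7 ± 8.06 to 68.3 ± 6.41 CPM (SD, n = 3), with a log2 fold change of 0.37 (SE 0.10, 95% interval 0.16 to 0.59, edgeR adjusted p = 0.0359). The call was lost in 4 of the 6 fits without 1 library, with adjusted p in edgeR of 0.118 without ITGA5 fl/fl replicate 1, 0.125 without ITGA5 fl/fl replicate 2, 0.103 without Myα5KO replicate 1 and 0.0789 without Myα5KO replicate 3. Its neighbour *Mgl2*, which encodes the related receptor MGL2, had 35.4 ± 11.6 and 38.2 ± 5.92 CPM (SD, n = 3, log2 fold change 0.11, edgeR adjusted p = 0.766), and 9.02% of the 50-base stretches of *Clec10a* occur in other transcripts, mostly those of *Mgl2*.

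Levels of different receptors were compared per gene length, with the deposited FPKM. In ITGA5 fl/fl macrophages *Clec7a* had the highest mean at 165 FPKM, and *Clec4d* followed at 160.0 FPKM with an overlapping range. *Clec4e* at 114, *Clec4a1* at 111 and *Clec4n* at 106 FPKM formed a second tier in which neighbours overlapped. *Clec4a3* at 79.0, *Clec12a* at 40.9, *Clec4a2* at 28.3, *Clec10a* at 18.1 and *Clec5a* at 11.4 FPKM came below, each with a range apart from the next. In Myα5KO macrophages *Clec7a* kept the highest mean at 164 FPKM. *Clec4d* moved from rank 2 to rank 4 at 103 FPKM, within a tier of overlapping neighbours that ran from *Clec4a1* at 113.5 to *Clec4a3* at 94.0 FPKM. *Clec4e* moved from rank 3 to rank 6 at 65.2 FPKM, apart from its neighbours on either side.

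**Figure D3:**
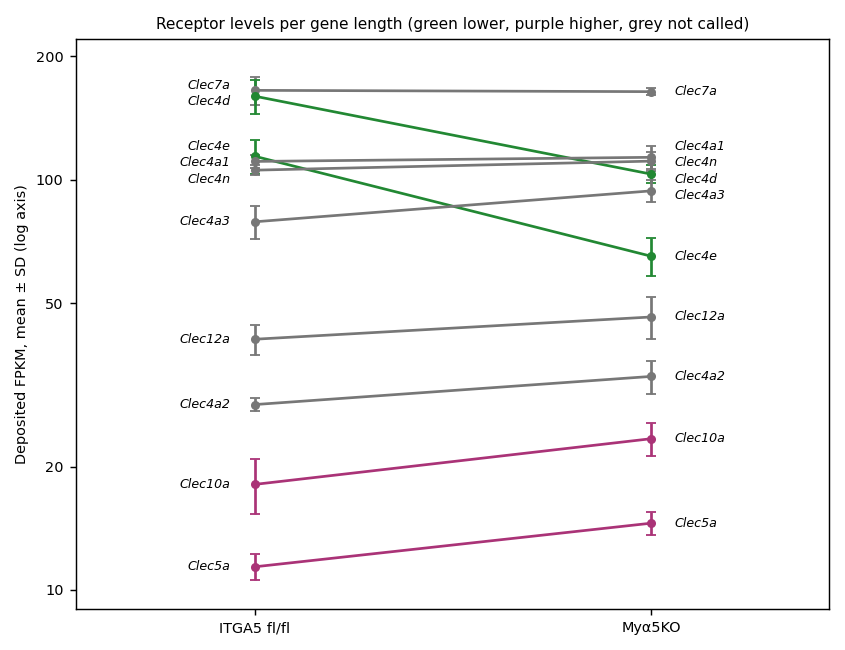
Deposited FPKM (y axis, log scale) of each receptor as mean ± SD of 3 libraries in ITGA5 fl/fl (left) and Myα5KO (right) macrophages. The lines of *Clec4e* and *Clec4d* (green) fall across those of *Clec4a1*, *Clec4n* or *Clec4a3*, and *Clec7a* stays on top.

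The shares of the receptors in their summed RNA followed these levels and were not tested on their own. *Clec4e* and *Clec4d* together made 30.5%, 32.1% and 36.0% of the summed FPKM of the 10 receptors in the ITGA5 fl/fl libraries, against 23.0%, 22.1% and 20.6% in the Myα5KO libraries. The sum itself was 844, 812 and 844.5 FPKM in the controls, against 764, 761 and 781 FPKM in Myα5KO libraries. Neither measure overlapped between the groups. Relative to *Clec7a*, *Clec4e* had FPKM ratios of 0.606, 0.662 and 0.820 in the controls, against 0.410, 0.439 and 0.344 in Myα5KO libraries. The ratio of *Clec4n* to *Clec4d* was 0.703, 0.673 and 0.613 in the controls, against 1.05, 1.18 and 1.01 in Myα5KO libraries, so that the order of these 2 genes per length was exchanged in every library. The ratio of *Clec4e* to its partner *Clec4d* was 0.732, 0.699 and 0.711 in the controls, against 0.626, 0.719 and 0.553 in Myα5KO libraries, and the groups overlapped. These ratios cancel the scaling of the libraries, since both genes are read in the same library.

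Along the chromosome, 9 of the 10 receptor genes lay on chromosome 6. The *Clec4* cluster, 368023 bases from the start of *Clec4a1* to the end of *Clec4e*, held 9 protein-coding genes in the order *Clec4a1*, *Clec4a3*, *Clec4a4*, *Clec4b1*, *Clec4a2*, *Clec4b2*, *Clec4n*, *Clec4d* and *Clec4e*. The 2 genes called lower were the last 2 of this row. *Clec4b1*, which encodes DCAR, an activating relative of DCIR, had 5.34 ± 0.22 and 8.33 ± 1.20 CPM (SD, n = 3) on 76 to 184 counts, and was called higher (0.64 on the log2 scale, SE 0.15, edgeR adjusted p = 0.0159). *Clec4a4* had 8 to 30 counts per library and missed the threshold (0.30 on the log2 scale, SE 0.41, edgeR adjusted p = 0.719), and *Clec4b2* was at 0 counts throughout (a count of 0 is compatible with up to 3 counts). In the second group of receptor genes, 130089 bases from *Clec12a* to *Clec7a*, *Clec12b*, *Clec1b*, *Clec9a* and *Clec1a* lay between them with 6 to 91 counts per library, and 0 of these 4 were called (edgeR adjusted p from 0.177 for *Clec9a* to 0.738 for *Clec1a*).

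**Figure D4:**
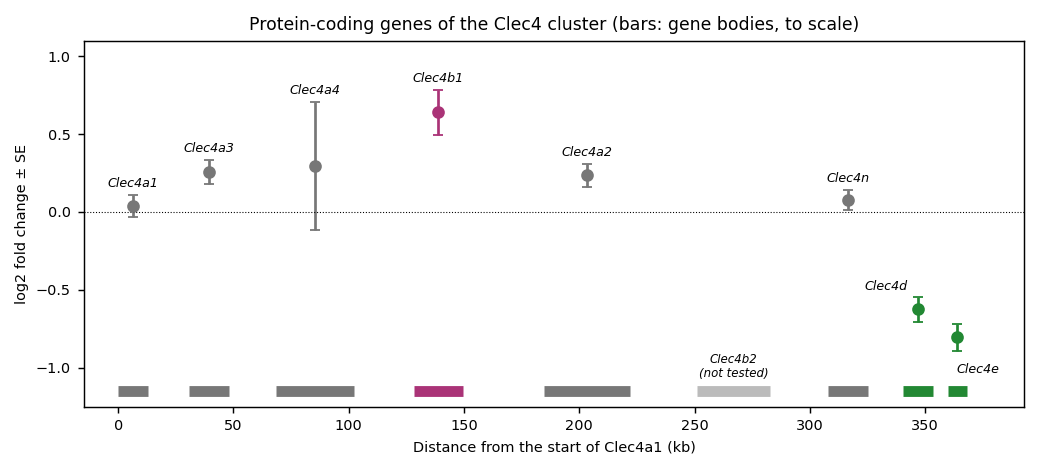
Log2 fold change ± SE (y axis, edgeR, Myα5KO over ITGA5 fl/fl) of the tested protein-coding genes of the *Clec4* cluster, placed by their distance in kilobases from the start of *Clec4a1* (x axis). Bars at the bottom are gene bodies, to scale, with green for lower, purple for higher and grey for not called, and only *Clec4d* and *Clec4e* at the right-hand end are lower.

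Across the 6 libraries, the genes whose levels ran most like those of *Clec4e* were *Ampd3*, *Ehd1*, *Jag1*, *Mllt6* and *Txnrd1*, among 9348 candidates. Likeness was the root mean square difference of log2 CPM, each gene centred on its own mean, and ranged from 0.06 for *Ampd3* to 0.07 for *Txnrd1*. Their own log2 fold changes were -0.81, -0.71, -0.71, -0.77 and -0.87 in the same order, so this likeness includes the difference between the groups. *Clec4d* was at a distance of 0.14 from *Clec4e*, with 73 candidates closer.

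Other C-type lectin receptors were read from a list of 25 genes, of which 21 were tested. Of these 3 were called higher and 1 lower (of all tested genes, 3.56% and 5.19%), with a median log2 fold change of -0.08. *Olr1*, which encodes LOX-1, a scavenger receptor for oxidised lipoproteins, had 118, 131 and 127 CPM in ITGA5 fl/fl and 73.0, 79.0 and 51.9 CPM in Myα5KO macrophages. It was lower in all Myα5KO libraries, with a change of -0.88 on the log2 scale (SE 0.12, edgeR adjusted p = 0.000645). *Cd209a*, a DC-SIGN homologue of monocyte-derived cells, rose from 10.8 ± 2.05 to 15.9 ± 1.92 CPM (SD, n = 3, log2 fold change 0.57, edgeR adjusted p = 0.0259). The endothelial gene *Clec14a* (3.74 to 6.00 CPM, edgeR adjusted p = 0.0269) and *Clec4b1*, described above, were the others called higher. All 3 increases were lost without some libraries. *Cd209a* lost its call without ITGA5 fl/fl replicate 3 (edgeR adjusted p = 0.109) and without Myα5KO replicate 2 (0.0821) or 3 (0.0721). *Clec4b1* lost its call without ITGA5 fl/fl replicate 2 (edgeR adjusted p = 0.0514) or 3 (0.0505) and without Myα5KO replicate 3 (0.057). *Clec14a* kept its call only without Myα5KO replicate 2 and reached an edgeR adjusted p of 0.102 without ITGA5 fl/fl replicate 3. *Olr1* was called in all 6 of these fits. The mannose receptor gene *Mrc1* had 953 ± 34.9 and 878 ± 88.9 CPM (SD, n = 3) and missed the threshold (-0.12 on the log2 scale, edgeR adjusted p = 0.418).

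The genes of the γ chain and of DAP12 did not pass the test. *Fcer1g*, which encodes the γ chain used by Mincle, MCL and Dectin-2, had 611 ± 25.6 and 597 ± 62.2 CPM (SD, n = 3, log2 fold change -0.03, 95% interval -0.21 to 0.14, edgeR adjusted p = 0.84). *Tyrobp*, which encodes DAP12, had 632 ± 23.9 and 619.9 ± 39.2 CPM (log2 fold change -0.03, 95% interval -0.18 to 0.12, edgeR adjusted p = 0.856). Among 20 adaptor and signalling genes, 1 was called higher and 3 lower (of all tested genes, 3.56% and 5.19%). *Syk*, the kinase that these receptors share, had 948, 859 and 876 CPM in ITGA5 fl/fl and 688, 675 and 614 CPM in Myα5KO macrophages, without overlap, and fell by 0.44 on the log2 scale (SE 0.07, edgeR adjusted p = 0.00291). *Malt1*, the protease downstream of CARD9 and BCL10, fell from 250.4 ± 1.01 to 196 ± 14.5 CPM (edgeR adjusted p = 0.00669) and the kinase gene *Src* from 34.5 ± 2.86 to 23.6 ± 0.60 CPM (edgeR adjusted p = 0.00181), both n = 3 with SD. *Ptpn6*, which encodes SHP-1, a phosphatase recruited by inhibitory receptors, rose from 177 ± 11.2 to 256 ± 5.30 CPM (SD, n = 3), without overlap, by 0.53 on the log2 scale (SE 0.07, edgeR adjusted p = 0.00043). All 4 called genes of this list were also called in the 6 fits without 1 library. *Card9* had 54.6 ± 0.84 and 60.8 ± 4.73 CPM (SD, n = 3) and was not called (edgeR adjusted p = 0.206).

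Genes of known protein ligands were read from a list of 5, of which 0 were called by edgeR or by DESeq2, with 1 higher and 0 lower at an unadjusted p under 0.05 in each. *Sap130* had 43.0 ± 3.65 and 40.2 ± 2.76 CPM (SD, n = 3, log2 fold change -0.10, edgeR adjusted p = 0.528).

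Of 17 tested response genes, whose RNA these receptors are known to induce, 8 were called lower and 1 higher (of all tested genes, 5.19% and 3.56%). Their median log2 fold change was -0.32. At an unadjusted p under 0.05 in edgeR, 11 were lower and 4 higher. The study named several of them from these libraries, so their count is not independent evidence. *Il10*, the gene of an anti-inflammatory cytokine, had 389.6, 429 and 523 CPM in ITGA5 fl/fl and 186, 227 and 204 CPM in Myα5KO macrophages, and fell by 1.12 on the log2 scale (SE 0.10, edgeR adjusted p = 5.6e-05). The interleukin-1 gene *Il1a* had a log2 fold change of -1.33, the neutrophil growth factor gene *Csf3* of -1.09, the chemokine genes *Cxcl1* and *Cxcl2* of -0.97 and -0.81, and *Il6* of -0.95, all of them called. Smaller decreases were those of *Nlrp3*, the inflammasome sensor, (-0.32) and of *Il1b* (-0.29). *Il1b* was called in 1 of the 6 fits without 1 library, that without Myα5KO replicate 2, and *Nlrp3* lost its call without ITGA5 fl/fl replicate 2 (edgeR adjusted p = 0.0594) or 3 (0.0704). *Egr3*, an early response transcription factor, rose from 17.4 ± 0.33 to 30.6 ± 0.76 CPM (SD, n = 3, edgeR adjusted p = 0.000109). *Tnf* had 262 ± 19.0 and 220.1 ± 31.0 CPM (SD, n = 3) and was not called (edgeR adjusted p = 0.123).

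Of 13 transcription factor genes that act in myeloid cells, 3 were called lower and 0 higher (of all tested genes, 5.19% and 3.56%). At an unadjusted p under 0.05 in edgeR, 3 had a higher value, and DESeq2 also called 0 higher. *Nfkb1*, which encodes a subunit of NF-κB, had 718, 673 and 671 CPM in ITGA5 fl/fl and 446.5, 463 and 370.4 CPM in Myα5KO macrophages, without overlap (-0.69 on the log2 scale, SE 0.08, edgeR adjusted p = 0.000359). *Nfkb2* and *Relb*, the genes of further NF-κB subunits, were called lower with log2 fold changes of -0.39 and -0.38. *Cebpb*, a factor of inflammatory gene induction, had 948 ± 55.7 and 869.7 ± 101.0 CPM (SD, n = 3, log2 fold change -0.12, edgeR adjusted p = 0.430).

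**Figure D5:**
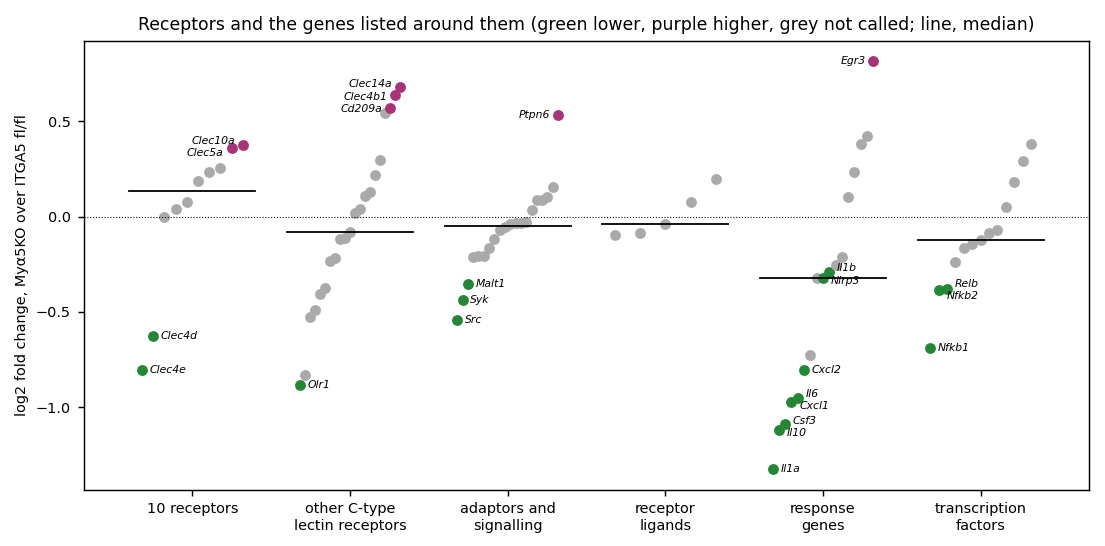
Log2 fold change (y axis, Myα5KO over ITGA5 fl/fl, edgeR) of the 10 receptors and of the tested genes of the 5 lists around them, 1 point per gene, with the list median as a line. Points are green for lower, purple for higher and grey for not called, and the response genes hold the most called lower (8 of 17).

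Summed markers differed between the groups for some other cell types and overlapped for others. Monocyte markers summed to 303 to 385 CPM in ITGA5 fl/fl and to 459 to 477 CPM in Myα5KO macrophages, and 3 of 6 were called higher, among them *Ccr2* (168 ± 18.8 to 250.4 ± 14.8 CPM, SD, n = 3, edgeR adjusted p = 0.00111). Neutrophil markers summed to 187.5 to 226.5 CPM in ITGA5 fl/fl and to 245.5 to 372.5 CPM in Myα5KO macrophages, of which *Csf3r* alone gave 155 and 169 CPM. The 5 of 8 tested that were called higher were *S100a8*, *S100a9*, *Ltf*, *Camp* and *Ngp*, the genes of granule and cytosolic proteins. *Retnlg* had a lower mean with overlapping groups (4.81 and 3.10 CPM) and was not called (edgeR adjusted p = 0.311). *Mmp8* had a higher mean (6.60 and 9.17 CPM) and was not called either (edgeR adjusted p = 0.0665). The defining markers *Ly6g* (0.02 and 0.05 CPM) and *Cxcr2* (0.45 and 0.39 CPM) were near 0 in both groups. Dendritic cell markers overlapped, at 367 to 412 and at 399.6 to 419 CPM, with 0 of 9 called higher by edgeR and 1 lower. Resident macrophage markers also overlapped (186 to 276 and 212 to 276 CPM), with 0 of 5 called higher and 1 lower. So did B cell markers (60.4 to 95.2 and 94.5 to 148 CPM), with 2 of 4 called higher and 0 lower. Endothelial markers overlapped too (255 to 283 and 277 to 311 CPM), with 1 of 5 called higher and 0 lower. Summed fibroblast markers (1445 to 1662 and 1068 to 1422 CPM) were lower in Myα5KO libraries, with 0 of 5 genes called. Summed cardiomyocyte markers (20.9 to 23.0 and 12.9 to 16.9 CPM) were lower as well, with 3 of 6 called lower. Summed T and NK cell markers (10.5 to 15.5 and 16.4 to 20.4 CPM) were higher, with 0 of 3 tested genes called. Most of that sum was *Gzma* (8.61 and 11.9 CPM, edgeR adjusted p = 0.0754), and *Cd3e*, *Cd3d* and *Cd3g* had too few counts to be tested. Monocytes and neutrophils also express several of the 10 receptors. The macrophage marker sum was lower in Myα5KO libraries, without overlap (10390 to 10510 and 9846 to 10340 CPM). Of its 8 genes 1 was called higher and 0 lower in edgeR. The part of monocytes, neutrophils and macrophages in the receptor values was not tested.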

How the data were processed

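RNA-seq libraries of cardiac macrophages (3 ITGA5 fl/fl and 3 Myα5KO, grouped by their titles and genotype labels) were analysed from 2 deposited tables. The authors prepared polyadenylated RNA, removed low-quality reads, aligned paired reads of 150 bases and counted reads per gene, and the submitters' processing notes name TopHat2 2.0.9, Cufflinks 2.1.1, HTSeq 0.6.1 and the builds mm10 and GRCm38.p6. The deposited count table holds whole reads per gene without normalization. Strand and the handling of reads that map to several genes are not given in the sources used here. The deposited FPKM equal the count divided by gene length and by a constant per library that is proportional to the DESeq2 size factor computed here. Both tables list 54532 genes, each with 1 length.

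Differential expression was tested in edgeR 4.0.16 by its quasi-likelihood method (R 4.3.3, TMM scaling, minimum count 10, minimum total 15), two-sided, with Benjamini-Hochberg adjustment over all 14522 tested genes and calls at 0.05 or less. No covariate was used. Fold changes set Myα5KO over the ITGA5 fl/fl controls. CPM use the TMM factors. The test was checked on simulated counts. Totals lay between 15424451 and 18419287. Intervals are those of the log2 fold change and rest on the spread between libraries. Reads carry no molecular identifiers, so counting limits cover counting error only.

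The receptors, the gene lists and the rule for named genes were chosen with earlier results of these data known. Named were the 10 receptors, *Itga5*, *Lyz2*, every called gene of the 5 lists, 8 set genes of those lists (*Mrc1*, *Mgl2*, *Fcer1g*, *Tyrobp*, *Syk*, *Card9*, *Sap130*, *Cebpb*) and the 5 genes most like *Clec4e* (mean of at least 100 counts per library, prior count 2, no predicted or RIKEN names). *Tnf*, the other genes of both clusters and the cell markers were named after their values were seen. Alternatives were DESeq2 1.42.0, limma 3.58.1 (voom on counts, and trend on log2(FPKM + 1) and log2(FPKM + 0.1) for genes at 1 FPKM or more in at least 3 libraries, or with no filter), median-ratio scaling, library totals only, other count filters, the replicate number as a block, an adjusted p of 0.01 and each library left out. Promoters were read from a RefSeq table for GRCm38.p6, which matched 8 of the 10 receptors (not *Clec4n* and *Clec10a*). Shared stretches of 50 and 150 bases were counted over the annotated transcripts. The study's cultured cells, single cells and protein data were not analysed here, and 1 gene was left out of the adaptor and signalling list and is not reported here.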

Additional observations from a re-analysis of the deposited data

How the results depend on the processing

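Both decreases, of *Clec4e* and *Clec4d*, kept their direction in all 17 alternatives and their call in 16. Over the alternatives the adjusted p of *Clec4e* ranged from 7.55e-24, in edgeR with no count filter, to 0.0641 in limma. That of *Clec4d* ranged from 2.96e-14 to 0.0679 in the same fits. Both lost their call in limma on log2(FPKM + 1) without a filter (log2 fold change -0.80, adjusted p = 0.0641, and -0.62, adjusted p = 0.0679). That fit called 2 genes higher and 8 lower of all genes, 0 receptors higher, 0 lower, and 1 list gene higher and 0 lower, with 4 receptors higher and 2 lower and 10 list genes higher and 24 lower at an unadjusted p under 0.05. The main counts were 517 genes higher and 754 lower, 2 receptors in each direction, and 5 list genes higher and 15 lower over the 5 lists.

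With the filter, limma called 150 genes higher, 322 lower, 0 receptors higher (4 at an unadjusted p under 0.05) and 3 list genes higher on log2(FPKM + 1), and 142, 306, 0 (again 4) and 3 on log2(FPKM + 0.1). Library totals only gave 1212 genes, 4 receptors and 11 list genes higher, with *Clec7a* at 0.0765, and moved the median of all tested genes from 0.01 to 0.095. No count filter gave 798, 4 and 10 higher, with *Clec7a* at 0.0029. *Clec4a2* and *Clec4a3* were the receptors added in both. At an adjusted p of 0.01 there were 128 genes higher, 342 lower, 0 receptors higher (4 at an unadjusted p under 0.05 in edgeR and 3 by DESeq2 at an adjusted p of 0.05) and 2 list genes higher.

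Without 1 library, 187 to 420 genes were higher and 429 to 671 lower, 1 to 3 receptors were higher and 2 lower, and 2 to 7 list genes were higher and 13 to 16 lower. Genes higher fell to 341, 252 and 187 without ITGA5 fl/fl replicates 1, 2 and 3 and to 264 without Myα5KO replicate 2, and genes lower to 471 and 429 without ITGA5 fl/fl replicates 2 and 3. List genes higher fell to 3 without ITGA5 fl/fl replicate 2 and to 2 without ITGA5 fl/fl replicate 3 or Myα5KO replicate 3. Receptors called higher went to 1 without ITGA5 fl/fl replicate 2 or 3 or Myα5KO replicate 2 or 3. *Clec7a* ranged from -0.0541 to 0.0571, turning to 0.0571 without ITGA5 fl/fl replicate 1 and to 0.0125 without Myα5KO replicate 2, and *Clec4a1* from -0.0203 to 0.0731, turning to -0.0203 without Myα5KO replicate 3. Leaving out a library tests fewer samples, and for the other changes the cause was not tested.

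The titles number the libraries 1 to 3 in both groups, but same-numbered libraries did not deviate together (correlations 0.05, -0.06 and 0.04). With the replicate number as a block, 464 genes were higher and 717 lower, *Clec4e* (-0.81), *Clec4d* (-0.62), *Clec5a* (0.36) and *Clec10a* (0.38) stayed called and no other receptor was added. Both higher calls rest on 679 to 1392 counts per library.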
